A study of Homo sapiens with 7 samples.

Results

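The members described here are 5 mature miRNAs of 2 clusters, miR-143 with miR-145 and miR-199a with miR-214, which are better known from mesenchymal cells than from epithelium. They were chosen by name, as the rows hsa-miR-143-3p, hsa-miR-145-5p, hsa-miR-199a-3p, hsa-miR-199a-5p and hsa-miR-214-3p among the 2656 human mature miRNAs of the deposited count table. The measurement was small RNA-seq of small extracellular vesicles (sEVs), the membrane-bound particles that cells release, here collected from conditioned medium of HepG2, a human hepatocellular carcinoma line of epithelial character. The cells carried an inducible lentiviral short hairpin RNA, either a control hairpin (shCTR, 3 libraries) or one directed at SYNCRIP (shSYNCRIP, 4 libraries), SYNCRIP being an RNA-binding protein studied for its part in loading miRNAs into sEVs. Both arms were puromycin-selected populations, induced with doxycycline and grown for 72 h in serum depleted of vesicles, and all 7 libraries were biological replicates by their titles. SYNCRIP itself was not measured, since the table holds miRNAs alone, and the knockdown was therefore not checked here. The study assessed SYNCRIP RNA and protein in its silenced cells and describes it as depleted.

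miR-143 and miR-145 are processed from the long noncoding RNA CARMN and are known for their abundance in smooth muscle, where they favour the contractile state. miR-199a and miR-214 come largely from the antisense transcript DNM3OS and are typical of fibroblasts and other stromal cells, including those of fibrotic liver. Within each cluster a shared primary transcript gives rise to both hairpins, each hairpin gives a 5p and a 3p strand, and one of these strands is usually kept while the other is degraded.

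The mature sequences show that the clusters are units of transcription and not of sequence, since no seed is shared between members. RefSeq held all 5 of them, printed 5′ to 3′ with the seed (bases 2 to 8, which pair with targets) in capitals.
miR-143-3p: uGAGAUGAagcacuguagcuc
miR-145-5p: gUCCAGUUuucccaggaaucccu
miR-199a-3p: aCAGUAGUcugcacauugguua
miR-199a-5p: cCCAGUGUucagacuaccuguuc
miR-214-3p: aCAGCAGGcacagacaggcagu
The mature sequence of miR-199b-3p, from a paralogous hairpin, is the same as that of miR-199a-3p in all 22 bases. Among miRNAs detected in these libraries, miR-199b-3p was the only one to share a seed with a member.

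On GRCh38.p14, miR-143-3p lies on the plus strand of chromosome 5 from 149428978 to 149428998, in an exon of CARMN. miR-145-5p follows 1662 bases downstream on the same strand, from 149430661 to 149430683, in an intron of CARMN. miR-214-3p lies on the minus strand of chromosome 1 from 172138816 to 172138837, in an exon of DNM3OS and antisense to an intron of DNM3. The MIR199A2 copy of miR-199a lies 5716 bases from miR-214-3p in the same transcript, with the 3p strand at 172144554 to 172144575 and the 5p strand at 172144592 to 172144614. The MIR199A1 copy gives the same mature strands from chromosome 19, at 10817429 to 10817450 and 10817469 to 10817491 on the minus strand, antisense to an intron of DNM2. Counts per mature sequence therefore pool both miR-199a loci, and counts of the 3p strand cannot be told apart from those of MIR199B on chromosome 9.

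The libraries held 29863 to 388226 counts, with the lowest total in shSYNCRIP replicate 2. Between 100 and 275 miRNAs had a count in each, the fewest in shSYNCRIP replicate 4. That library had 44 of the 117 tested miRNAs at 0 counts, against 4 to 14 in the other 6. Rank correlations between libraries of the same group (Spearman rho 0.51 to 0.73) had a range that contained the one seen between groups (0.53 to 0.71). Of the liver miRNAs, miR-122-5p and miR-483-3p were counted in all 7 libraries, whereas miR-885-5p was at 0 and miR-192-5p did not exceed 1 count. Values below are counts as deposited, shares of a library's counts, or CPM, counts scaled to a common library size after adjustment by the trimmed mean of M values (TMM). A share describes the miRNA pool of a library, so fewer copies in each vesicle and fewer vesicles holding the miRNA cannot be told apart.

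Of the 5 members, 4 were counted in the sEV libraries of this epithelial line, but unevenly. Counts alone do not give the source of a miRNA, which was not tested. miR-199a-3p was counted in every library at 142 or more, miR-143-3p in every library at 3 or more, and miR-145-5p and miR-214-3p at 240 counts or more in 2 libraries each and at 0 in others. miR-199a-5p had no count in any. Their summed share was 2.31%, 1.64% and 1.60% in the shCTR replicates and 0.730%, 0.549%, 0.967% and 2.03% in the shSYNCRIP replicates, in replicate order. The groups overlapped, as shSYNCRIP replicate 4 lay above 2 of the 3 shCTR libraries.

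**Figure D1:**
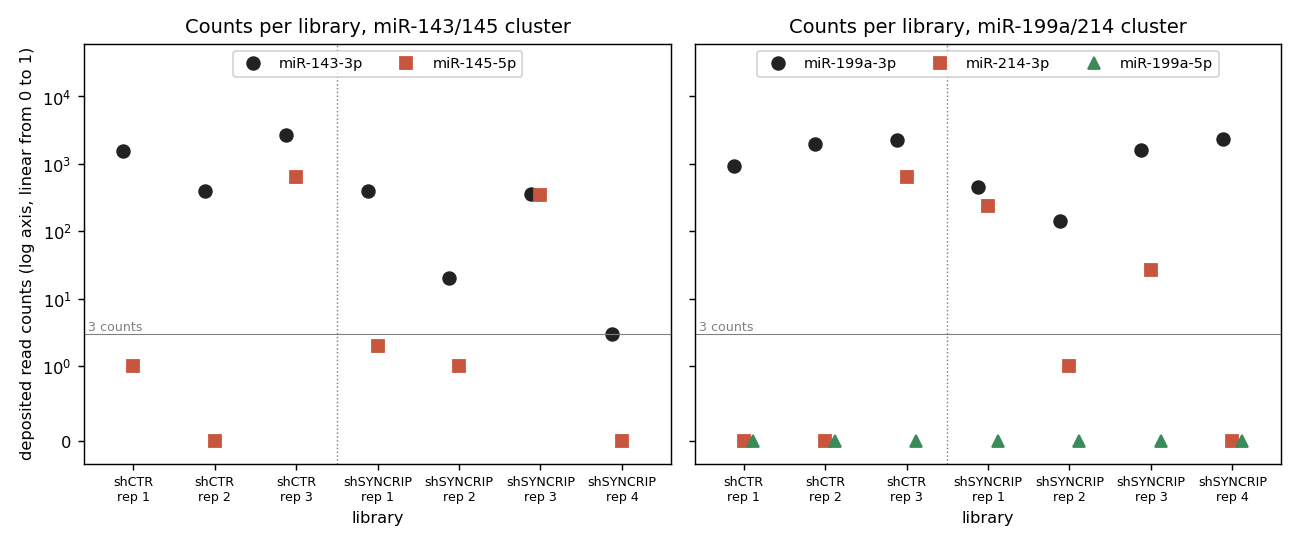
Read counts of each member as deposited (y axis, logarithmic above 1 count and linear from 0 to 1) in the 3 shCTR and 4 shSYNCRIP libraries (x axis), with 1 point per miRNA and library and a grey line at 3 counts. miR-199a-3p stays at 142 counts or more throughout, whereas miR-145-5p and miR-214-3p are at 240 counts or more in 2 libraries each and miR-199a-5p is at 0 in all 7.

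miR-143-3p, the dominant strand of its hairpin and a repressor of smooth muscle dedifferentiation, was the member with the widest separation between groups. Its counts were 1531, 403 and 2664 in the shCTR replicates and 402, 20, 361 and 3 in the shSYNCRIP replicates. As TMM-scaled CPM these were 14871, 2805 and 6923 in shCTR and 2437, 688, 1747 and 30.02 in shSYNCRIP. Each shSYNCRIP library was thus lower than each shCTR library, an order found for 4.27% of the 117 tested miRNAs, while 2.56% had the opposite order. The separation was narrow, however, between the lowest control and the highest knockdown library. By library size alone shCTR replicate 2 had a share of 0.274% (95% Clopper-Pearson interval 0.248% to 0.302%) and shSYNCRIP replicate 1 had 0.267% (0.241% to 0.294%), and these counting intervals overlap.

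miR-143-3p averaged 8200 ± 6133 CPM across the shCTR sEVs (SD, n = 3) and 1225 ± 1074 CPM across the shSYNCRIP sEVs (SD, n = 4). In limma-voom its log2 fold change (shSYNCRIP minus shCTR) was -3.35 with a standard error of 1.84 and a 95% interval of -7.04 to 0.34. The nominal p of 0.0748 met the study's criteria (nominal p under 0.1 with a change beyond 0.5, taken here on the log2 scale), which 12.8% of the tested miRNAs met in the lower direction and 5.13% in the higher. The Benjamini-Hochberg adjusted p over all 117 was 0.46 in limma-voom, and 2.56% of the tested miRNAs had an adjusted p under 0.05 in the lower direction. edgeR's quasi-likelihood test gave a log2 fold change of -2.74 with an adjusted p of 0.98, and called none of the tested miRNAs (0%), with 1.71% at an unadjusted p under 0.05. DESeq2 gave -2.90 with an adjusted p of 0.35, where 2.56% of the tested miRNAs were called in either direction. An exact permutation test of the log2 CPM, two-sided over 35 splits with 0.0286 as the smallest p possible, gave p = 0.0857 for a difference of -3.47. The difference in miR-143-3p thus did not pass correction in any of these tests.

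Whether miR-143-3p met the criteria depended on single libraries. They were met in 4 of 7 fits that left out 1 library, and were lost without shCTR replicate 1 (log2 fold change -3.26, nominal p 0.114), shCTR replicate 3 (-2.96, 0.153) or shSYNCRIP replicate 4 (-2.26, 0.13) in limma-voom. Without shSYNCRIP replicates 2 and 4, the shallowest library and the one with the fewest miRNAs, limma-voom gave -1.76 with an adjusted p of 0.84. In those same libraries tested miRNAs at 3 counts or fewer numbered 31 and 59 of 117, against 7 to 18 in the other 5. The part of these sparse counts in the miR-143-3p difference was not tested beyond these fits.

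**Figure D2:**
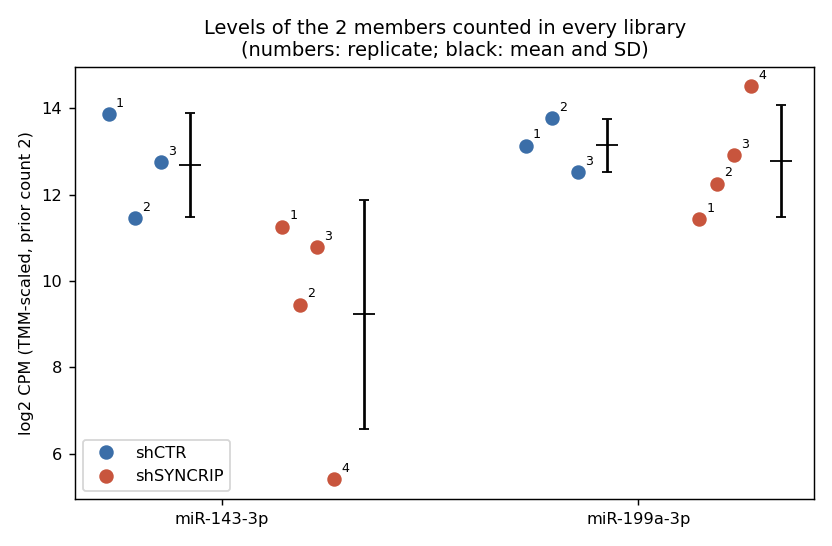
Levels of miR-143-3p and miR-199a-3p (y axis, log2 of TMM-scaled CPM with a prior count of 2) in each shCTR (blue) and shSYNCRIP (red) library, numbered by replicate, with the mean and SD in black. For miR-143-3p the 4 shSYNCRIP points lie below the 3 shCTR points, with replicate 4 far below the rest, whereas for miR-199a-3p the groups overlap and shSYNCRIP replicate 4 is the highest library.

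miR-145-5p, the partner of miR-143-3p and a repressor of pluripotency and smooth muscle plasticity factors, was counted in fewer libraries. Its counts were 1, 0 and 643 in the shCTR replicates and 2, 1, 342 and 0 in the shSYNCRIP replicates. One library of each group held nearly all of its 989 counts, at 0.166% of shCTR replicate 3 and 0.142% of shSYNCRIP replicate 3, and the other 5 libraries had 2 counts or fewer. shCTR replicate 1, with 1531 counts of miR-143-3p, had a single count of miR-145-5p, for which the exact 95% upper limit was 0.00524% of that library.

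miR-145-5p was too sparse for the filter on low counts. Fitted without that filter, limma-voom gave a log2 fold change of -0.15, with a 95% interval of -5.07 to 4.77 and an adjusted p of 0.99. Without the filter, edgeR's quasi-likelihood fit gave -1.31 and DESeq2 -0.75, both of the same sign. An exact permutation test gave p = 0.943. An interval this wide includes large changes in either direction, so neither a difference nor its absence could be shown with these libraries.

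miR-199a-3p, the strand of the miR-199a hairpins that dominates in many tissues, had the most counts of the members. Its counts were 925, 2002 and 2263 in the shCTR replicates and 457, 142, 1601 and 2334 in the shSYNCRIP replicates. In CPM these were 8985, 13933 and 5881 in shCTR and 2770, 4883, 7748 and 23358 in shSYNCRIP. The highest and the lowest level were both in shSYNCRIP libraries, so the groups overlapped across the whole control range. By abundance it ranked between 15 and 54 among the miRNAs of a library, whereas miR-143-3p ranked between 17 and 86.

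The mean level of miR-199a-3p over the shCTR sEVs was 9600 ± 4061 CPM (SD, n = 3), close to the 9690 ± 9337 CPM of the shSYNCRIP sEVs (SD, n = 4). limma-voom gave a log2 fold change of -0.26 with a standard error of 0.81, a 95% interval of -1.88 to 1.36 and an adjusted p of 0.99. The sign was not fixed, as edgeR's quasi-likelihood fit gave 0.01 and DESeq2 0.10. An exact permutation test gave p = 0.657. This was the narrowest interval of the 3 members tested.

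The row of miR-199b-3p held the same count as miR-199a-3p in every library, 9724 in all for each. Among detected miRNAs with a sequence there were 2 groups of rows with a common mature sequence, and in both the counts were identical. Whether reads were repeated in both rows or divided between them is not given in the sources used here, and the members' shares above use the miR-199a-3p row alone. With both rows added, the sequence would take 0.606% to 4.06% of a library.

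miR-199a-5p, the other strand of the same hairpins and a regulator of hypoxia and autophagy transcripts, had 0 counts in all 7 libraries. With no read, the share could still reach 0.000773% in the deepest library (3 counts of its total, with an exact 95% upper limit of 0.00095%) and 0.01% in the shallowest (upper limit 0.0124%). miR-199b-5p and miR-214-5p were likewise at 0, while miR-143-5p had 2 counts and miR-145-3p had 3 over all libraries. Each member hairpin with counts was therefore represented wholly or almost wholly by 1 strand. Such imbalance was common in the table: of 75 hairpins whose major strand had at least 1000 counts, 57.3% had a minor strand at 0 and 73.3% at 3 counts or fewer.

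miR-214-3p, the DNM3OS partner of miR-199a-3p, was detected in fewer libraries. Its counts were 0, 0 and 630 in the shCTR replicates and 240, 1, 27 and 0 in the shSYNCRIP replicates. The 2 libraries above 100 counts were shCTR replicate 3 and shSYNCRIP replicate 1, 1 in each group. shSYNCRIP replicate 4, the library with the most miR-199a-3p, had none.

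For miR-214-3p the mean level was 546 ± 945 CPM over the shCTR sEVs (SD, n = 3) and 405 ± 702 CPM over the shSYNCRIP sEVs (SD, n = 4). limma-voom gave a log2 fold change of 1.75 with a standard error of 2.51, a 95% interval of -3.28 to 6.77 and an adjusted p of 0.99. edgeR's quasi-likelihood fit gave -0.43 and DESeq2 -0.84, both with the opposite sign. An exact permutation test gave p = 0.83. No direction is given for miR-214-3p, since the tools differed in it.

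Cluster partners were both above 3 counts in few libraries, 2 of 7 for miR-143-3p with miR-145-5p and 3 of 7 for miR-199a-3p with miR-214-3p. The log2 ratio of miR-143-3p to miR-145-5p was 9.40, 7.83 and 2.04 in the shCTR replicates and 6.64, 3.90, 0.08 and 1.78 in the shSYNCRIP replicates. The ratio was thus far from constant within either group. Where both were well counted, miR-143-3p exceeded miR-145-5p in shCTR replicate 3 and the levels were close in shSYNCRIP replicate 3. The log2 ratio of miR-199a-3p to miR-214-3p was 9.51, 10.14 and 1.84 in shCTR and 0.92, 6.71, 5.76 and 10.88 in shSYNCRIP. Its miR-199a-3p counts also pool loci outside DNM3OS. In both pairs the range of the ratio within each group was wider than the difference between group means.

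The groups did not differ in either ratio beyond the spread of the libraries. For miR-143-3p over miR-145-5p the mean was 6.42 ± 3.87 (SD, n = 3) in shCTR and 3.10 ± 2.83 (SD, n = 4) in shSYNCRIP, with an exact permutation p of 0.229 (0.457 adjusted over the 2 pairs). For miR-199a-3p over miR-214-3p it was 7.16 ± 4.62 (SD, n = 3) and 6.07 ± 4.09 (SD, n = 4), with an exact permutation p of 0.771. Between the members counted in every library, a pair chosen after the values were seen, the log2 ratio of miR-143-3p to miR-199a-3p was -0.45 ± 1.63 (SD, n = 3) in shCTR and -3.56 ± 3.86 (SD, n = 4) in shSYNCRIP, with an exact permutation p of 0.2. Its shSYNCRIP values include replicates 2 and 4, with 20 and 3 counts of miR-143-3p. Ratios that involve a library at or near 0 counts depend on the prior count of 2 added before taking logs.

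Whether the partners moved together over the 7 libraries was also examined by correlation, as planned. The values of miR-145-5p and miR-214-3p fall into a cluster near 0 and a cluster of well counted libraries, and for this reason no pooled coefficient is given. That decision was made after the coefficients had been seen. The sign was positive for miR-143-3p with miR-145-5p. Its exact permutation p, adjusted over the 2 pairs, was 0.518 for Pearson r and 0.757 for Spearman rho. The sign was negative for miR-199a-3p with miR-214-3p, the library with the most miR-199a-3p having no miR-214-3p. For Pearson r the exact permutation p was 0.0476 before and 0.0952 after adjustment. For Spearman rho it was 0.0571 before and 0.114 after adjustment. Pairs with miR-199a-5p could not be computed, as it has no counts.

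The members' counts were mostly either very low or well above the floor. Of 28 values (the 4 members with counts in 7 libraries), 35.7% were at 3 counts or fewer, 7.14% between 4 and 99, and 57.1% at 100 or more. Over the 117 tested miRNAs the corresponding shares were 18.8%, 19.5% and 61.7%. This is a description only, since 1 of these 4 members did not pass the filter that the 117 passed.

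The hEXO motif is the sequence element through which SYNCRIP is reported to recognise exported miRNAs. It was searched as a run of 6 bases after the first 7 of each miRNA: 3 bases other than C, then a base other than U, then A or U, then G or C. It matched in miR-143-3p, miR-145-5p and miR-214-3p and did not match in either strand of miR-199a, and the matches are printed here in capitals because they divide the members.
miR-143-3p, first match: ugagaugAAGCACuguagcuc
miR-143-3p, second match: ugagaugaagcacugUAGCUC
miR-145-5p: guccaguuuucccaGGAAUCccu
miR-214-3p, first match: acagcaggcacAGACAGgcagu
miR-214-3p, second match: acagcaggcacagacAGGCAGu
The matches in miR-214-3p overlap by 2 bases. A match was common in general, present in 63.6% of the 2367 rows of the table with a RefSeq sequence and in 61.9% of tested miRNAs with one. Among the 3 members with a match, miR-143-3p had a lower fitted level in shSYNCRIP sEVs, and miR-214-3p had no settled direction. The fits of miR-145-5p were below 0, but its limma-voom interval of -5.07 to 4.77 left the direction undecided. Only the mature strand as listed was searched.

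To place the members among other miRNAs, a list of 20 chosen as stromal and muscle miRNAs was examined. How far the listed miRNAs are restricted to such cells was not tested. Of these, 19 had a count in some library, 7 in every library, and 9 passed the filter. None of the 9 met the study's criteria in limma-voom. Of all tested miRNAs, 12.8% met them in the lower direction and 5.13% in the higher. Of the 9, 6 had a log2 fold change below 0 against 52.1% of all tested miRNAs. The median of the 9 was -0.68 against -0.07 for all tested miRNAs. The range ran from -2.56 for miR-22-3p to 2.91 for miR-10a-5p. miR-10b-5p, a HOX cluster miRNA, was at 555, 1031 and 1163 counts in shCTR and at 892, 10, 1385 and 1 in shSYNCRIP, so its low libraries were again shSYNCRIP replicates 2 and 4. Among muscle miRNAs, miR-1-3p had 1 to 96 counts, miR-206 had 0 to 4, miR-133b had 2 or fewer and miR-490-3p had none. miR-133a-3p had 430 counts in shCTR replicate 3 and 0 to 13 in the other 6 libraries.

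**Figure D3:**
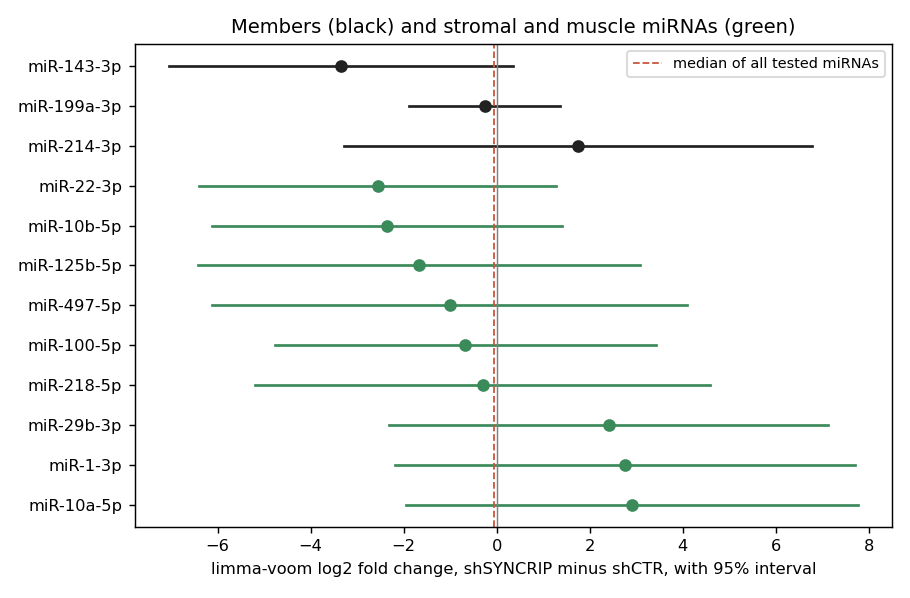
limma-voom log2 fold change (x axis, shSYNCRIP minus shCTR) with its 95% interval for the 3 members that passed the filter (black) and the 9 tested stromal and muscle miRNAs (green), with the median of all tested miRNAs as a dashed line at -0.07. Every interval includes 0, and miR-199a-3p has the narrowest, from -1.88 to 1.36.

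Lists for other cell types were followed in the same libraries. Epithelial miRNAs took 2.4% to 3.72% of shCTR and 1.63% to 12.6% of shSYNCRIP libraries, with miR-203a-3p, a keratinocyte miRNA, in all 7 and miR-429 at 0. None of the 3 tested met the criteria, against 12.8% of all tested miRNAs in the lower direction and 5.13% in the higher. The median log2 fold change of the 3 was 0.41. miR-203a-3p held most of the epithelial counts in every library, as 12957 of 14044 in shSYNCRIP replicate 4. Its log2 fold change was 0.53 in limma-voom and 1.48 in DESeq2. edgeR's quasi-likelihood test gave 1.45 with an unadjusted p of 0.0243 and an adjusted p of 0.98, where 1.71% of tested miRNAs had an unadjusted p under 0.05. Liver miRNAs took 1.83% to 3.29% and 1.64% to 4.53%, with a median log2 fold change of -1.16 over the 5 tested. Of these, miR-483-5p alone met the criteria in the lower direction in limma-voom (-4.05, against 12.8% of all tested miRNAs meeting them), but its value was 0.16 in edgeR's quasi-likelihood fit and 0.02 in DESeq2. Blood and endothelial miRNAs took 13.8% to 20.9% and 9.31% to 15.4%, more than the members in every library. Most of these counts were of a single miRNA, miR-486-5p, in every library. It had 2644 of the 2779 counts of the list in shSYNCRIP replicate 2 and 9816 of 10831 in replicate 4. The share therefore describes miR-486-5p more than the list, and its limma-voom log2 fold change was -0.23. Of 8 tested, 3 met the criteria in the lower direction in limma-voom, again against 12.8% of all tested miRNAs, namely miR-142-5p (-4.50), miR-126-3p (-4.33) and miR-451a (-3.62), and the median was -2.39. miR-142-5p and miR-126-3p were also below 0 in edgeR's quasi-likelihood fit (-1.57 and -2.13) and in DESeq2 (-1.79 and -2.38), whereas miR-451a was at 0.60 and 0.32. In shSYNCRIP replicates 2 and 4, where miR-143-3p was lowest, the counts of miR-451a were 1 and 0, those of miR-142-5p 0 and 0, and those of miR-126-3p 5 and 0. Their part in the miR-143-3p difference was not tested.

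**Figure D4:**
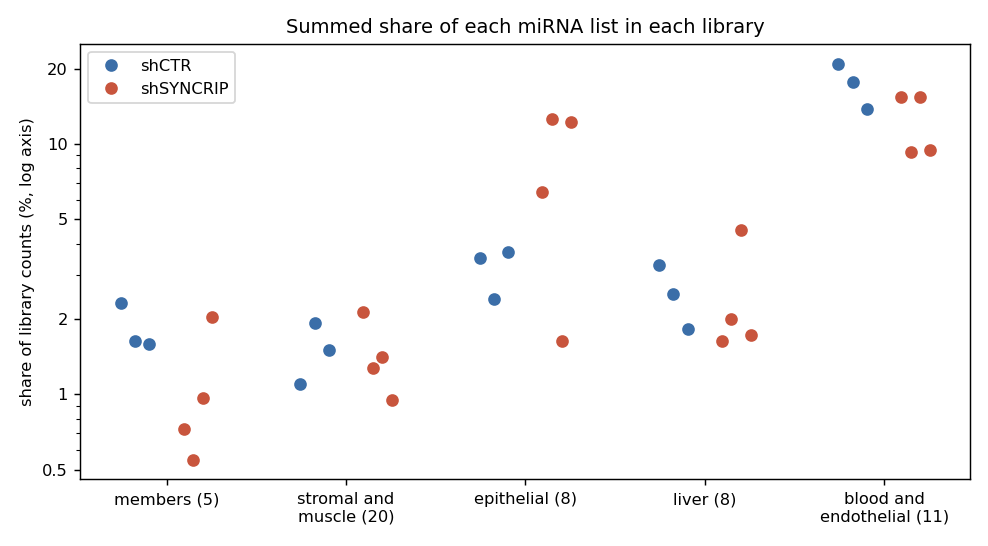
Summed share of each miRNA list in each library (y axis, % of counts, logarithmic) for shCTR (blue) and shSYNCRIP (red) libraries, with the number of miRNAs of each list in brackets. The members and the stromal and muscle list take 0.549% to 2.31% of a library, below the 9.31% to 20.9% of the blood and endothelial list. Most counts of the blood and endothelial list are of miR-486-5p in every library.

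The tested miRNAs whose order over the 7 libraries was most like that of a member were listed as a description, with no test. For miR-143-3p these were miR-130a-3p (Spearman rho 0.929), miR-142-5p (0.919), a miRNA of blood cells, and miR-106b-5p (0.821). Like miR-143-3p, each of them had every shSYNCRIP library below every shCTR library, an order found for 4.27% of the tested miRNAs. Each rho therefore includes this shared order of the groups. miR-130a-3p had 339, 223 and 509 counts in shCTR and 11, 1, 37 and 0 in shSYNCRIP. For miR-199a-3p they were miR-199b-3p, whose row is the same, then let-7a-5p and let-7f-5p (0.857 each), which are broadly expressed. For miR-214-3p they were miR-375-3p, an endocrine and epithelial miRNA, miR-1306-5p and miR-99a-5p, given without a coefficient because the values of miR-214-3p are clustered. miR-375-3p had 11, 3 and 1002 counts in shCTR and 286, 9, 250 and 0 in shSYNCRIP. miR-145-5p was not among those nearest to miR-143-3p, nor miR-214-3p among those nearest to miR-199a-3p, although miR-145-5p could not have been, as it was not tested. The 7 points behind each rho share the differences in depth between libraries.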

How the data were processed

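Small RNA-seq counts of sEVs from 3 shCTR and 4 shSYNCRIP HepG2 cultures were used. The deposited values were raw counts per mature miRNA, which the authors made by adapter and quality trimming (FastqToolkit, Cutadapt) and MiRDeep2 quantification against miRBase, keeping forward reads. Columns were matched to samples by group and replicate number, and all table columns were used. The cell line field changes its last digit from sample to sample while every title says HepG2, and the titles were followed.

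The members and the lists of miRNAs were chosen with earlier results of these data known. Counts were filtered by filterByExpr (117 of 2656 kept, 3 of the 5 members), TMM-scaled and fitted by limma-voom, as in the study's methods, with edgeR's quasi-likelihood test and DESeq2 beside it (R 4.3.3, edgeR 4.0.16, limma 3.58.1, DESeq2 1.42.0, Python 3.11.15). Adjusted p-values are Benjamini-Hochberg over all tested miRNAs. CPM uses the counts of tested miRNAs times the TMM factor as the denominator, changed from all counts after a first run to match the fits. DESeq2 size factors were changed after that run from those over positive counts to the default, and both are reported. Named miRNAs were the members, those of the lists, and the 3 nearest to each tested member by Spearman rho. Sequences and positions are from RefSeq (GRCh38.p14), and host genes from GENCODE 29. Tests were tried on simulated counts, with recovery of changed miRNAs required only in a setting less variable than these data. Totals of 29863 to 388226 counts set the counting precision within a library, and intervals and limits from a count of 0 cover counting error only. Replicate numbers were not taken to pair the libraries, as the deviations of same-numbered libraries correlated with r of -0.06 to 0.09. So few noisy libraries cannot exclude a pairing.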

Additional observations from a re-analysis of the deposited data

Results flagged for a closer look

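One value stood apart among the 11 groups of 4 libraries that were examined, a rate near what chance gives (about 1 in 20 groups). The liver list took 4.53% of shSYNCRIP replicate 3, against 1.64% to 2.00% in the other 3 shSYNCRIP libraries. Of that list, miR-483-3p had 4906 counts and miR-483-5p 3325 counts in this library. No member was flagged, but on the scale of shares single libraries also held most of 2 members in this group. miR-145-5p took 0.142% of shSYNCRIP replicate 3 and 0.00335% or less of the other shSYNCRIP libraries. miR-214-3p took 0.159% of shSYNCRIP replicate 1 and 0.0112% or less of the others.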

How the results depend on the processing

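miR-143-3p kept a log2 fold change below 0 and an adjusted p above the threshold under every alternative that could be fitted, from -4.24 to -2.26 in limma-voom with 1 library left out (adjusted p 0.33 to 0.83), but sample quality weights took its nominal p to 0.136. It reached -2.29 with the replicate block (adjusted p 0.72) and could not be fitted, like miR-214-3p, with at least 10 counts in every library. miR-199a-3p ranged from -1.12 to 0.03 with 1 library left out, turning to 0.0288 without shSYNCRIP replicate 1, 0.0137 in edgeR's quasi-likelihood test and 0.10 in DESeq2. miR-214-3p ranged from -0.16 (without shCTR replicate 2) to 4.32 (without shCTR replicate 3) in 5 of these 7 fits, as it did not pass the filter without shSYNCRIP replicate 1 or 3, and was -0.43 in edgeR's quasi-likelihood test and -0.84 in DESeq2, where its adjusted p was NA. The ratio difference of miR-143-3p to miR-145-5p ranged from -5.51 to -1.84 and that of miR-199a-3p to miR-214-3p from -3.75 to 0.62, turning without shCTR replicate 1 (0.08), shCTR replicate 2 (0.40) or shSYNCRIP replicate 1 (0.62). limma-voom's 3 adjusted calls became 6 with no filter (406 miRNAs tested), 0 with at least 10 counts in every library (36 tested), 1 with the replicate block, 1 without shSYNCRIP replicates 2 and 4 (added after seeing the data), and 1 to 9 with 1 library left out, 1 of them without shCTR replicate 3 or shSYNCRIP replicate 4 and 9 without shSYNCRIP replicate 3. The 21 miRNAs that met the study's criteria became 87 with no filter (22 lower and 65 higher), 3 with at least 10 counts, 13 with the replicate block (7 lower), 18 without shSYNCRIP replicates 2 and 4 (7 lower, 11 higher), 18 with quality weights (10 lower) and 16 to 22 with 1 library left out. edgeR's quasi-likelihood test called 0 in each setting run. DESeq2's default size factors moved the median log2 fold change of all tested miRNAs from -0.07 to -0.27, and size factors over positive counts, added after seeing the data, moved it to -0.54, with miR-143-3p at -3.60 and miR-199a-3p at -0.995. The cause of these changes was not tested. Counting error weighs most on the members where a library holds 3 counts or fewer.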
